A study of Mus musculus with 6 samples.

Results

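Periostin (Postn), transforming growth factor beta-induced protein (Tgfbi), tenascin-C (Tnc), tenascin-N (Tnn, also called tenascin-W), fibronectin (Fn1), scleraxis (Scx), mohawk (Mkx), parathyroid hormone-related protein (Pthlh) and its receptor (Pth1r) were followed in the mesenchyme of the mouse incisor. These 9 genes were taken by symbol from a table of 23718 genes because they are known from the dental follicle and the periodontal ligament, and all 9 were listed. Values of RNA sequencing came from 6 laser-captured samples of mice aged 1 month, labelled C57BL/6 although the methods speak of a mixed background, in which a tdTomato reporter (tdT) was switched on by tamoxifen 1 day before collection. Mesenchymal stem cell (MSC) regions, 3 samples, were taken from the genotype Gli1-CreER;tdT, whose Cre acts in cells that express Gli1, and transit amplifying cell (TAC) regions, 3 samples, from Axin2-CreER;tdT, whose Cre acts in cells that express Axin2. A captured region can hold cells other than the labelled ones, and the methods give 3 mice per group without saying which mouse gave which sample, so the p-values measure the spread between these samples. The comparison asks which of these genes differ between the stem cells and their dividing progeny.

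The dental follicle is the mesenchymal sac around a growing tooth, and it gives rise to the periodontal ligament, the cementum and part of the socket bone. Periostin, TGFBI, the tenascins and fibronectin are secreted glycoproteins that link collagen fibres to the integrins of neighbouring cells, and periostin is abundant in the ligament. Scleraxis and mohawk are transcription factors of tendon and ligament cells. Parathyroid hormone-related protein is a secreted ligand that acts through the G protein-coupled receptor PTH1R, and both are needed for tooth eruption.

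Values keep the normalized scale of the deposited table, on which the third quartile over all listed genes was 15.59 to 15.62 in each library. A difference is TAC minus MSC on the scale log2(value + 1). Estimated reads numbered 20203159 to 25567244 in replicates 1 and 2 of both groups, 59793645 in MSC replicate 3 and 108156380 in TAC replicate 3. The libraries stood in 2 sets that cut across the groups. Mitochondrial ribosomal RNA took 8.28% to 9.07% of estimated reads in replicates 1 and 2, and only 0.236% (MSC) and 0.112% (TAC) in replicate 3, and 42.6% of listed genes had no read in MSC replicate 3 and 27.8% in TAC replicate 3, against 6.38% to 7.88% in the other 4 libraries. The 9 genes are therefore also described for replicates 1 and 2 and for replicate 3, where each group is left with 1 library and nothing was tested. Gli1 and Axin2, the genes whose drivers name the groups, had differences of -0.54 and 0.60 with p-values of 0.297 and 0.348 (limma). With the replicate number as a block the p of Gli1 was 0.0320 and that of Axin2 0.130, and the library sets gave -0.77 (replicates 1 and 2) and -0.090 (replicate 3) for Gli1. For Axin2 they gave 0.18 (replicates 1 and 2) and 1.43 (replicate 3). In the fit without the block all 5 proliferation markers examined were higher in TAC with unadjusted p-values of 0.000109 to 0.0326.

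Of the 9 genes, 0 passed an adjusted p-value of 0.05, as 0.422% of the 15391 genes tested did. At an unadjusted p-value under 0.05 in limma, 2 genes passed, Pthlh and Tnn, where 11.9% of all genes did. Pthlh was higher in MSC, with a difference of -1.66, and Tnn was higher in TAC, with 2.77, although without MSC replicate 3 the difference of Tnn was 1.26. The groups did not overlap for 3 genes. Pthlh and Mkx had every MSC library above every TAC library, which held for 12.2% of genes tested, and Tnn had every TAC library above every MSC library, which held for 12.3%. The median difference was -0.165 over the 9 genes and 0.026 over all genes tested, with 6 of the 9 differences negative against 48.5% of all genes.

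**Figure D1:**
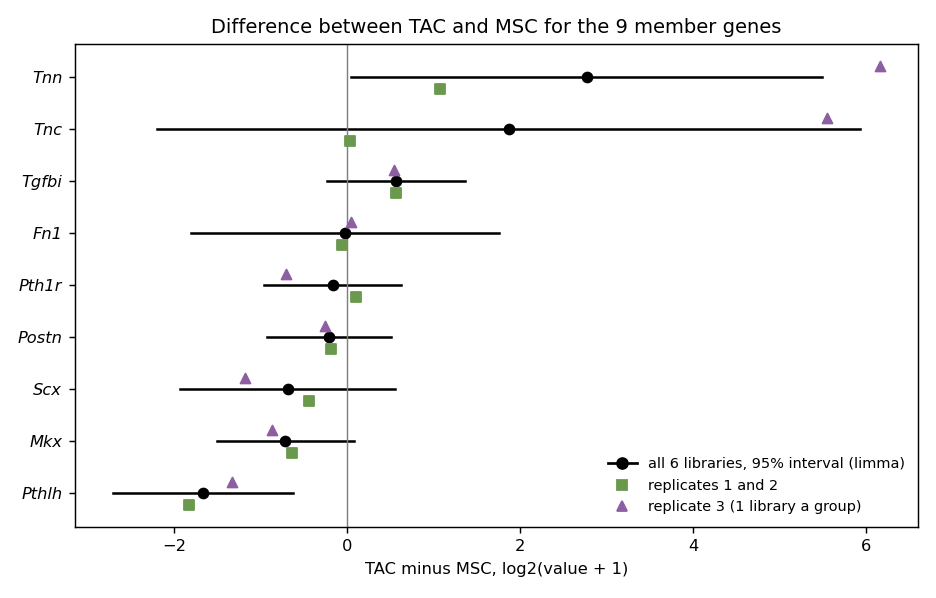
Difference between TAC and MSC (x axis, log2(value + 1)) for each of the 9 genes. Black points and lines are the limma estimate over 6 libraries with its 95% interval, squares the difference within replicates 1 and 2, and triangles the difference within replicate 3. The interval leaves out 0 for Pthlh and, narrowly, for Tnn, whose lower end is 0.052. The triangles of Tnn and Tnc lie at 6.16 and 5.55, far from their squares at 1.07 and 0.034.

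Among the matrix proteins, the 2 tenascins were the genes whose values were lost in a single library. Tenascins are large multi-arm glycoproteins, and TNN is found mostly in developing bone, tooth and ligament matrix. Of the 9 genes, 6 have an entry in the RefSeq promoter table (GRCm38.p6). The bases before the starts of Tnn and Tnc are shown because both genes were near 0 in the same library, and those before the start of Pthlh because it had the smallest p-value of the 9. Each is written 5′ to 3′ on the gene's own strand, with capitals for the E-box letters CANNTG, a pattern that reads alike on both strands and that scleraxis, a basic helix-loop-helix factor, can bind. Bases that GENCODE release M21 places inside the gene are left out, 5 of 250 for Tnn and 170 of 250 for Pthlh.
Tnn, chr1:160153581-160153825, minus strand: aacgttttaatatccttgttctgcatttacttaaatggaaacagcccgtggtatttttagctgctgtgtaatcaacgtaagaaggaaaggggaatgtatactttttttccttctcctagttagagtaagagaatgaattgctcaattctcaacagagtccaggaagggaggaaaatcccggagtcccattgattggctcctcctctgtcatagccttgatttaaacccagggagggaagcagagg
Tnc, chr4:64047016-64047265, minus strand: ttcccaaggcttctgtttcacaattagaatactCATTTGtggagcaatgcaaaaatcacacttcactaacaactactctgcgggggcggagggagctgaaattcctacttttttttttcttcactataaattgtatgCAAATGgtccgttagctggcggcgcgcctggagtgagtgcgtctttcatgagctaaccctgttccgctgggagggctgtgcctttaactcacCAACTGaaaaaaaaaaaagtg
Pthlh, chr6:147264184-147264263, minus strand: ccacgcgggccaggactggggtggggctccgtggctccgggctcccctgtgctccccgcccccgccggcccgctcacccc

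Over the full 250 bases before each RefSeq start, the Tnn window held 0 matches to CANNTG, the Tnc window shown here 3 and the Pthlh window 1. The Pthlh match lay in the bases left out above. At least 1 match was present in 66.2% of the 32851 windows of this length, so its presence or absence is common. The letters TATAAA, on either strand, were found in the Tnc window and in 12.4% of all windows, and not in the windows of Tnn or Pthlh. G and C made up 75.2% of the Pthlh window, 44.8% of the Tnc window and 42.0% of the Tnn window.

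Tnn (mm10 chromosome 1, minus strand, from 160085029 to 160153580) measured 21.1, 23.3 and 0.0133 across MSC replicates 1 to 3, whereas TAC replicates 1 to 3 gave 43.0, 52.9 and 71.5. All 3 TAC libraries lay above all 3 MSC libraries, and MSC replicate 3 lay near 0. MSC averaged 14.8 ± 12.9 (SD, n = 3) and TAC averaged 55.8 ± 14.4 (SD, n = 3), which is a difference of 2.77 (SE 1.16, 95% interval 0.052 to 5.49, limma p 0.0468, adjusted p 0.410). In replicates 1 and 2 the TAC to MSC ratios of the same-numbered libraries were 2.04 and 2.27. Replicate 3 held 1 estimated read in MSC against 18853 in TAC, a scaled ratio of 10738 with a 95% exact binomial interval of 1927 to 424145, which covers counting error only. The difference was 1.07 within replicates 1 and 2 and 1.26 without MSC replicate 3. The unadjusted call was lost without TAC replicate 1, 2 or 3 (p 0.0660, 0.0795 and 0.143) and with the replicate number as a block (p 0.0624). It was also lost with a pseudocount of 0.1 (p 0.0927), without a variance trend (p 0.0594) and with a mean of at least 10 (p 0.0591). The adjusted p of Tnn across alternatives spanned 0.000109 to 0.785.

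Tnc (mm10 chromosome 4, minus strand, from 63959785 to 64047015) measured 170.3, 162.4 and 0.473 across MSC replicates 1 to 3, whereas TAC replicates 1 to 3 gave 173.2, 167.4 and 67.97. In replicates 1 and 2 the 4 libraries lay within 162.4 to 173.2, so the groups were at nearly one level there. In replicate 3 both groups lay lower, and MSC lay at 70 estimated reads against 17927 in TAC. The difference of 1.87 (SE 1.73, limma adjusted p 0.730) did not exceed the replicate spread and became -0.404 without MSC replicate 3.

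Some markers of other cell types were low or high in the same libraries, and others were not. In MSC replicate 3 the 6 odontoblast markers summed to 654, against 3426 to 5205 in the other 5 libraries, and Dmp1 and Ibsp had no read there. Dspp made up most of that sum, with 476.1 in MSC replicate 3 and 3095 to 4909 in the others, while Sp7 was highest in MSC replicate 3, at 122.3 against 55.3 to 114.3. The 8 dental epithelium markers summed to 299.7 in that library, against 2149 to 3658 in the others, with Cdh1 and Epcam at no read. The enamel matrix genes Amelx, Ambn and Enam made up most of it, while the keratin genes Krt5 and Krt14 were 15.004 and 16.02 in MSC replicate 3, above their values of 7.75 to 12.9 in MSC replicates 1 and 2. Krt5, Krt14, Cdh1 and Epcam had every TAC library above every MSC library, as 12.3% of all genes tested had. Their differences were 0.80, 0.79, 1.73 and 1.62, with limma unadjusted p-values of 0.0290 to 0.105. The groups overlapped for the other epithelial markers. With the replicate number as a block 3 of the 8 were higher in TAC at an unadjusted p under 0.05, where 9.43% of all genes were. The 6 osteoblast markers summed to 363.6 in MSC replicate 3 and to 1778 in TAC replicate 3, where Tnn was highest, against 273.9 to 316.3 in replicates 1 and 2. Bglap and Bglap2 gave 1180 and 484 of the sum in TAC replicate 3, where Spp1, at 4.85, was at its lowest and Ifitm5 was 0.110 against 1.20 to 2.09 in replicates 1 and 2. The part of these cells in the values of Tnn and Tnc was not tested. In captured tissue fewer cells of a type, less RNA per cell and a loss of transcripts in the library cannot be told apart. MSC replicate 3 had no read for 42.6% of listed genes, against 6.38% to 7.88% in replicates 1 and 2.

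**Figure D2:**
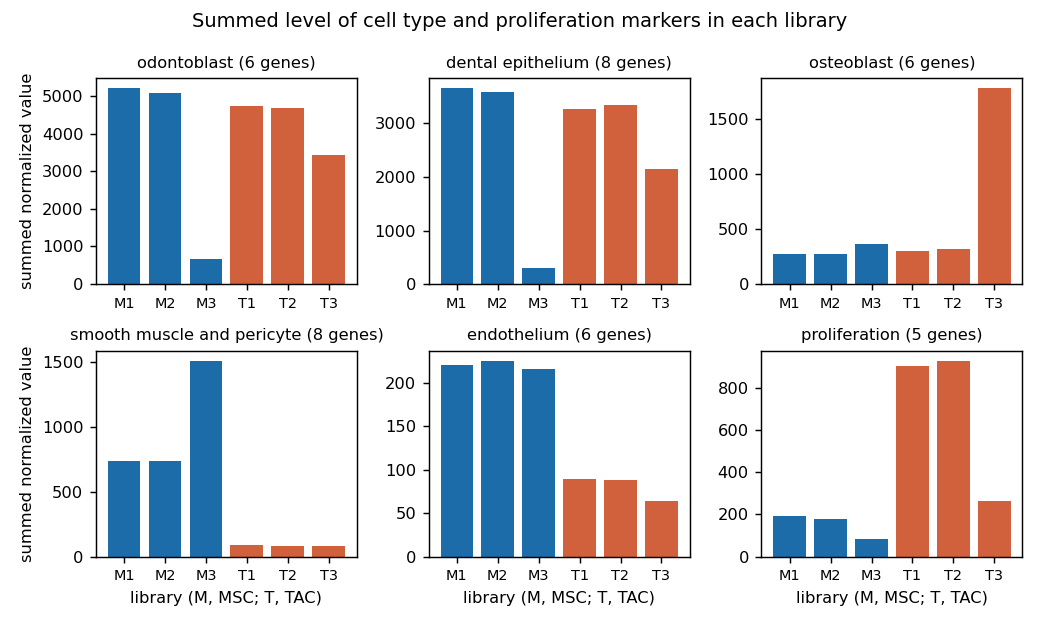
Summed normalized value (y axis) of 6 marker lists in the 3 MSC and 3 TAC libraries (x axis), 1 bar per library and no error bars. The summed odontoblast and dental epithelium markers, mostly Dspp and the enamel matrix genes, are lowest in MSC replicate 3, the smooth muscle and endothelial sums are higher in each MSC library than in any TAC library, and the proliferation sum is higher in each TAC library than in any MSC library.

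The fasciclin proteins, which share a repeated adhesion domain, gave steadier values. Tgfbi (mm10 chromosome 13, plus strand, from 56609603 to 56639339) measured 127.7, 129.1 and 80.3 across MSC replicates 1 to 3, whereas TAC replicates 1 to 3 gave 187.9, 194.9 and 118.0. TAC replicate 3 lay below MSC replicates 1 and 2, so the groups overlapped, yet each TAC library lay above the MSC library of the same number. The TAC to MSC ratio was 1.47, 1.51 and 1.47 in replicates 1, 2 and 3. MSC averaged 112 ± 27.8 (SD, n = 3) and TAC averaged 167 ± 42.5 (SD, n = 3), which is a difference of 0.56 (SE 0.34, limma p 0.138, adjusted p 0.577).

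The even ratio of Tgfbi was seen best with the replicate number as a block. The SE then was 0.11 and the unadjusted p 0.00485, with an adjusted p of 0.0892, whereas with replicates 1 and 2 averaged as 1 sample and no block the unadjusted p was 0.395. With the block 3 of the 9 genes had an unadjusted p under 0.05, Tgfbi, Mkx and Pthlh, where 20.4% of all genes did, and 0 passed the adjusted threshold, where 1.49% did. Over the alternatives the adjusted p of Tgfbi ran from 2.12e-05, in replicates 1 and 2 only, to 1.00, and its difference from 0.34 to 0.80.

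Postn (mm10 chromosome 3, plus strand, from 54361109 to 54391037), the most used marker of the periodontal ligament, measured 74.8, 63.4 and 104.5 across MSC replicates 1 to 3, whereas TAC replicates 1 to 3 gave 57.5, 63.9 and 87.3. The groups overlapped, and replicate 3 was highest in both. The difference was -0.21 (SE 0.31, 95% interval -0.93 to 0.52, limma adjusted p 0.864), and the library sets gave -0.18 (replicates 1 and 2) and -0.26 (replicate 3). With single libraries left out it ran from -0.0082, without MSC replicate 3, to -0.38, without TAC replicate 3. A change of about 1 on the log2 scale in either direction lies outside that interval.

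Fn1 (mm10 chromosome 1, minus strand, from 71585520 to 71653200), the fibril-forming ligand of several integrins, measured 511.2, 516.4 and 122.7 across MSC replicates 1 to 3, whereas TAC replicates 1 to 3 gave 486.3, 497.8 and 126.5. Replicate 3 lay 4.19 times below the mean of replicates 1 and 2 in MSC and 3.89 times below it in TAC. The groups overlapped, and the same-numbered libraries differed by a ratio of TAC to MSC of 0.951, 0.964 and 1.03. The difference was -0.027 (SE 0.76, limma adjusted p 0.995), and with the block the SE was 0.098 and the unadjusted p 0.797. Its sign changed with the library left out.

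**Figure D3:**
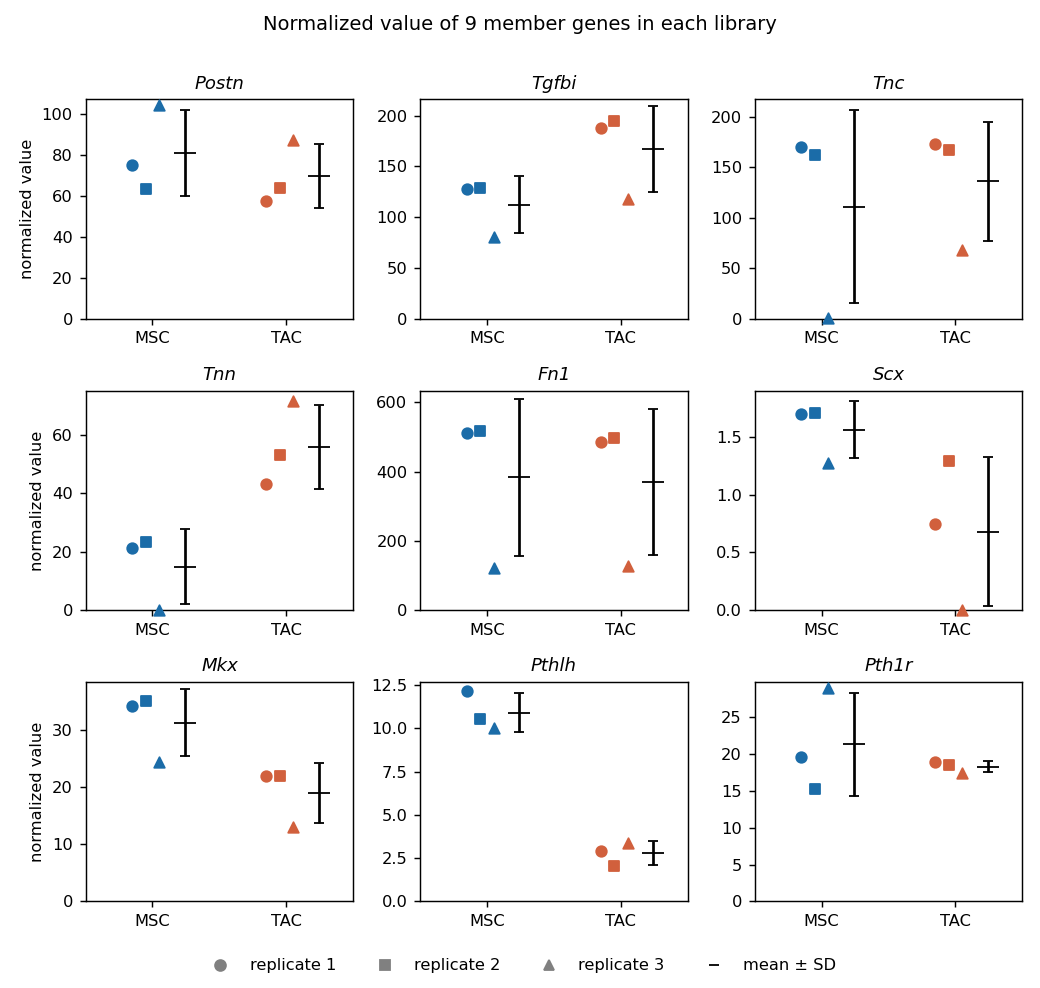
Normalized value (y axis, separate scale per panel) of each gene in the 3 MSC and 3 TAC libraries, with circles, squares and triangles for replicates 1, 2 and 3 and black bars for the mean ± SD of each group. Pthlh and Mkx show all MSC points above all TAC points, Tnn shows the reverse, and the triangles of Fn1 lie low in both groups.

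Of the transcription factors, Mkx was detected well and Scx barely. Mkx, a homeobox protein that maintains tendon and periodontal ligament cells, spans 6910459 to 7004780 on the minus strand of chromosome 18. It measured 34.2, 35.2 and 24.5 across MSC replicates 1 to 3, whereas TAC replicates 1 to 3 gave 22.005, 21.9 and 13.0, so the lowest MSC library lay just above the highest TAC library. MSC averaged 31.3 ± 5.90 (SD, n = 3) and TAC averaged 19.0 ± 5.18 (SD, n = 3), which is a ratio of 1.65. The difference was -0.71 (SE 0.34, limma p 0.0719, adjusted p 0.472). Replicates 1 and 2 gave -0.64 and replicate 3 gave -0.87. With the block its unadjusted p was 0.0180 and its adjusted p 0.153. With replicates 1 and 2 averaged as 1 sample and no block the unadjusted p was 0.304, and across alternatives the adjusted p spanned 0.000809 to 1.00.

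Scx (mm10 chromosome 15, plus strand, from 76457438 to 76459468), which marks tendon and ligament progenitors, measured 1.71, 1.71 and 1.28 across MSC replicates 1 to 3, whereas TAC replicates 1 to 3 gave 0.744, 1.29 and 0.0038. These stand for 58 to 191 estimated reads in MSC, 33 and 53 in TAC replicates 1 and 2, and 0 in TAC replicate 3. The groups overlapped narrowly, since TAC replicate 2 reached the level of MSC replicate 3. Set against a floor of 3 reads in TAC replicate 3, the value of MSC replicate 3 was 111.8-fold higher, a bound that covers counting error only. In TAC replicate 3, 27.8% of listed genes had no read. In replicates 1 and 2 MSC was 2.29 and 1.32 times TAC. The difference was -0.69 (SE 0.53, limma p 0.234, adjusted p 0.680), and it was -0.35 without TAC replicate 3, -1.73 with a pseudocount of 0.1 and -5.15 with voom on estimated reads. Scx overlaps Bop1 on the opposite strand, and Bop1 was 8.71 to 15.1 over the libraries. The use of strand in counting is not given in the sources used here, so reads of the 2 genes cannot be told apart where they overlap. The same holds for Tnc and Fn1, which overlap 8030451A03Rik and Apol7d on the opposite strand (1.29 or less and 0.435 or less in each library), and Mkx overlaps AC148004.2 on its own strand.

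Skeletal muscle, to which tendon attaches, was nearly absent from the captured regions. Of its 7 markers 5 were listed, and they summed to 1.74 to 7.30 over the libraries, with Acta1, Myl1, Myh1 and Mylpf at no read in MSC replicate 3.

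The ligand Pthlh was the gene with the clearest difference. Pthlh (mm10 chromosome 6, minus strand, from 147252101 to 147264183) measured 12.2, 10.5 and 10.005 across MSC replicates 1 to 3, whereas TAC replicates 1 to 3 gave 2.93, 2.06 and 3.39. Every MSC library lay above every TAC library, and replicate 3 lay with replicates 1 and 2 in both groups. MSC averaged 10.9 ± 1.12 (SD, n = 3) and TAC averaged 2.80 ± 0.676 (SD, n = 3), which is a ratio of 3.90. MSC was 4.14, 5.12 and 2.95 times TAC in replicates 1, 2 and 3, from 363 to 1502 estimated reads in MSC and 85 to 894 in TAC.

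The difference of Pthlh was -1.66 (SE 0.44, 95% interval -2.70 to -0.62, limma p 0.00669, adjusted p 0.191). Replicates 1 and 2 alone gave -1.83, and replicate 3 gave -1.32. The unadjusted call held without each library in turn, with p-values of 0.00302 to 0.0407, and with the block (p 0.00682), and was lost when replicates 1 and 2 were averaged as 1 sample (p 0.168). Across alternatives the adjusted p of Pthlh spanned 0.000278 to 1.00. Smooth muscle and pericyte markers, 8 of 8 listed, summed to 738 to 1511 in MSC and 84.2 to 87.9 in TAC, and the 6 endothelial markers to 216 to 226 and 63.7 to 90.0, with Vwf, Pecam1 and Cdh5 higher in MSC. Of the other endothelial markers, Emcn, Tek and Kdr differed by -0.87, -0.64 and 0.0015 with p-values of 0.164, 0.191 and 0.997, and Vwf alone gave 91.1 and 96.2 of the sums in MSC replicates 1 and 2. The 5 Schwann cell markers summed to 20.2 to 43.2 in MSC and 6.09 to 19.2 in TAC, with Sox10 higher in MSC (difference -2.14, unadjusted p 0.00333). These 3 sums had every MSC library above every TAC library, as Pthlh had. Proliferation markers summed to 86.2 to 192.0 in MSC and 261.7 to 928 in TAC. The part of any of these cells in the level of Pthlh was not tested.

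The receptor Pth1r (mm10 chromosome 9, minus strand, from 110722085 to 110747145) measured 19.6, 15.3 and 29.0 across MSC replicates 1 to 3, whereas TAC replicates 1 to 3 gave 18.9, 18.6 and 17.4. The TAC libraries lay close together inside the range of the MSC libraries. The difference was -0.16 (SE 0.34, 95% interval -0.96 to 0.63, limma adjusted p 0.910). Replicates 1 and 2 gave 0.10 and replicate 3 gave -0.70. Pth1r overlaps Myl3 on the opposite strand, which was at 0.336 or less in each library.

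Levels can be compared between genes only per length, so the values were divided by the exon length in GENCODE release M21. In MSC the mean per kb of exon was 32.8 ± 19.3 for Fn1, 29.8 ± 7.36 for Tgfbi, 14.3 ± 12.3 for Tnc, 9.30 ± 2.44 for Postn, 7.64 ± 1.44 for Mkx, 7.29 ± 2.40 for Pth1r, 6.73 ± 0.690 for Pthlh, 2.54 ± 2.21 for Tnn and 0.780 ± 0.124 for Scx (SD, n = 3). Of the 8 pairs of neighbours in that order only Pthlh and Tnn had ranges that did not overlap. In TAC it was 44.3 ± 11.3 for Tgfbi, 31.7 ± 18.1 for Fn1, 17.5 ± 7.61 for Tnc, 9.60 ± 2.48 for Tnn, 7.997 ± 1.803 for Postn, 6.26 ± 0.260 for Pth1r, 4.64 ± 1.26 for Mkx, 1.73 ± 0.418 for Pthlh and 0.339 ± 0.323 for Scx (SD, n = 3). There 4 pairs did not overlap, from Postn and Pth1r down to Pthlh and Scx.

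The ligand and its receptor stood differently in the 2 groups on this scale. In the MSC replicates Pthlh was 7.51, 6.51 and 6.18 per kb and Pth1r was 6.71, 5.24 and 9.93, so neither was higher in all 3. In the TAC replicates Pthlh was 1.81, 1.27 and 2.10 per kb and Pth1r was 6.45, 6.35 and 5.96, and the receptor was above the ligand in each library. Tnn moved from the eighth place in MSC to the fourth in TAC, where it stood at 7.40 to 12.3 per kb.

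**Figure D4:**
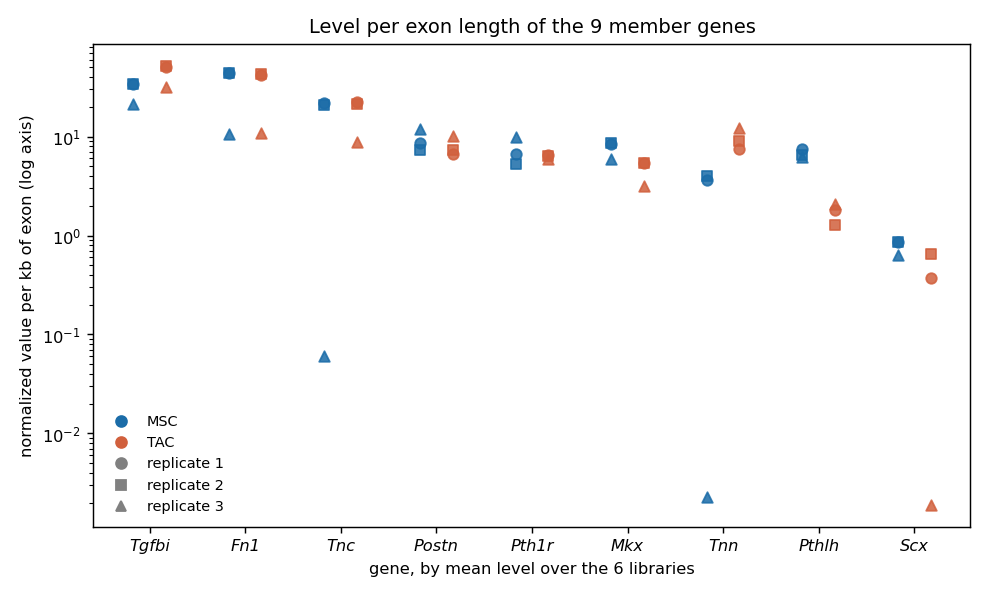
Normalized value per kb of exon (y axis, log axis) of the 9 genes (x axis, in order of the mean over 6 libraries), with blue MSC and orange TAC points and a marker shape per replicate. Fn1, Tgfbi and Tnc are highest, Scx is lowest, and the isolated low points are Tnc and Tnn in MSC replicate 3 and Scx in TAC replicate 3, the last of which stands for 0 reads.

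As a description of like patterns, the genes with the highest Pearson correlation of log2 values over the 6 samples were named for the 3 genes with the largest differences. For Pthlh these were Slc8a2 (0.995), Paxbp1 (0.995) and Dbp (0.992), for Tnn Swi5 (1.00), Pxdn (0.999) and Mrps21 (0.999), and for Tnc Uggt2 (1.00), Itgb1bp1 (0.999) and Rnf157 (0.999). Of 13129 genes compared, 154 had a correlation over 0.95 with Pthlh, 736 with Tnn and 1048 with Tnc, and all points share the 6 libraries. Slc8a2, a sodium-calcium exchanger, was 11.5 to 15.1 in MSC and 3.31 to 5.14 in TAC, and Dbp, a clock-controlled transcription factor, was 35.6 to 40.3 and 10.2 to 13.4. Uggt2 was 45.9 and 47.0 in MSC replicates 1 and 2 and 0.0266 in MSC replicate 3, where Tnc was low too. Among the 9 genes themselves the highest correlations were 0.941 for Scx with Mkx and 0.902 for Tnc with Tnn, and Postn with Tgfbi had the lowest, -0.899. In MSC and TAC, replicate 3 of Postn was 1.51 and 1.44 times the mean of replicates 1 and 2. For Tgfbi it was 0.626 and 0.617 times that mean, so this correlation includes the difference between the library sets.

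Genes that work with these 9 were taken from 5 lists, of which 72 genes were tested. At an unadjusted p under 0.05, 19 were higher in MSC, where 6.43% of all genes were, and 2 were higher in TAC, where 5.42% were. With the block the counts were 27, where 10.9% of all genes were higher in MSC, and 5, where 9.43% were higher in TAC. Only in the list of other follicle and ligament genes did any pass the adjusted threshold, and these were Cxcl12 and Ctgf. Without MSC replicate 1 or 2 or TAC replicate 1 or 2, 0 of all 15391 genes passed it.

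Of 28 other dental follicle and periodontal ligament genes tested, 7 were higher in MSC and 1 in TAC, with a median difference of -0.44, and for 16 of the 28 both library sets gave a negative difference, as they did for 31.2% of all genes tested. Cxcl12, a chemokine of stromal niche cells, measured 125, 129 and 203 across MSC replicates 1 to 3, whereas TAC replicates 1 to 3 gave 13.0, 12.3 and 11.6, a difference of -3.49 (limma adjusted p 0.00876). Ctgf, a matricellular protein, was 47.8, 47.5 and 61.3 against 10.3, 7.93 and 5.49 (adjusted p 0.0389). Both adjusted calls were lost without MSC replicate 1 or 2 or TAC replicate 1 or 2. Vcam1, Lepr, Spon1 and Col6a1 were higher in MSC too, with differences of -2.97, -2.30, -0.98 and -0.93 and unadjusted p-values of 0.000831 to 0.00629, and so was Tnfrsf11b, with -2.02 and 0.0147. Thy1 was the one gene higher in TAC, with 11.2, 11.2 and 28.3 against 37.3, 37.98 and 92.5 (difference 1.67, unadjusted p 0.0130). With the block 12 genes of the list were higher in MSC and 3 in TAC, where Col1a2 and Col12a1 joined Thy1. Some of these genes are also expressed by vessel wall and stromal cells, and the smooth muscle, pericyte and endothelial sums were higher in MSC as given above. The proliferation sum and the epithelial markers Krt5, Krt14, Cdh1 and Epcam were higher in each TAC library than in any MSC library, as Thy1 was. The part of any of those cells was not tested.

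Of 11 tendon and ligament genes tested out of 19, 6 were higher in MSC and 0 in TAC, with a median difference of -0.66. With the block 6 were higher in MSC and 1, Col11a1, in TAC. Thbs4, a thrombospondin of tendon matrix, measured 119, 132 and 80.4 across MSC replicates 1 to 3, whereas TAC replicates 1 to 3 gave 7.05, 5.90 and 0.0038, where the last stands for 0 reads (difference -4.84, unadjusted p 0.00039, adjusted p 0.0709). Thbs2, Tgfb3, Fmod and Egr1 were higher in MSC, with differences of -0.93, -0.86, -0.66 and -1.099. Eya2 was 19.0, 18.2 and 2.82 in MSC and 1.51, 1.70 and 2.51 in TAC, so its difference of -1.98 was -2.91 in replicates 1 and 2 and -0.12 in replicate 3. Tnmd, the defining membrane protein of mature tendon, was at 0.671 or less in each library. In replicates 1 and 2 Chad gave 6.82 and 4.404 for MSC against 2.82 and 3.84 for TAC. Comp, Chodl, Cilp and Gdf5 were at 1.88 or less there, and these 5 genes had no read in either library of replicate 3. The smooth muscle, endothelial and Schwann cell sums given above were higher in MSC as the called genes of this list were, and their part was not tested.

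All 13 receptors that bind these matrix proteins were tested, and 4 were higher in MSC and 1 in TAC, with a median difference of -0.67. With the block 5 were higher in MSC, where Itga3 joined (limma unadjusted p 0.0375), and 1 in TAC. The integrin subunit gene Itga4, whose product takes part in binding fibronectin, measured 44.7, 48.9 and 13.8 across MSC replicates 1 to 3, whereas TAC replicates 1 to 3 gave 200.5, 209.2 and 119.8, a difference of 2.41 (SE 0.51, limma p 0.00196, adjusted p 0.129). The groups did not overlap, while the difference of Fn1 itself was -0.027. Itgb5, Itgb3 and Itga8, integrin subunits for periostin, fibronectin or tenascin, were higher in MSC, with differences of -1.36, -2.20 and -1.28, and so was the collagen receptor Ddr1, with -1.59 (unadjusted p 0.00269 to 0.0217). Itgb3 had no read in TAC replicate 3, and its difference there was -4.19 against -1.20 in replicates 1 and 2. Itgb1, the shared partner of many of these subunits, was 116.8 to 146.5 in MSC and 138.0 to 148.6 in TAC. The part of the vessel and Schwann cells, whose sums were higher in MSC, was not tested for these receptors either. The same holds for dividing cells, as the proliferation sum was higher in TAC, where Itga4 was higher.

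Of 4 relatives of the fasciclin and tenascin proteins 2 were tested. Stab1, a fasciclin-domain scavenger receptor of macrophages and some endothelium, measured 85.6, 87.6 and 75.9 across MSC replicates 1 to 3, whereas TAC replicates 1 to 3 gave 27.2, 33.997 and 31.1, a difference of -1.41 (SE 0.25, limma p 0.000639, adjusted p 0.0841). The macrophage markers summed to 65.2 to 180.1 in MSC and 38.9 to 124.3 in TAC, and this sum was higher in MSC in each same-numbered pair. Csf1r, one of the 6, did not overlap between the groups, while Adgre1, C1qa and C1qb were higher in TAC than in MSC in replicate 3, and 3 of the 6 were lower in TAC in both sets of libraries. Without the block none of the 6 had an unadjusted p under 0.05 (0.0622 to 0.904), and with it Csf1r and Lyz2 were higher in MSC (p 0.0094 and 0.00365). The endothelial sum was higher in MSC too, as given above. The part of either cell type in the level of Stab1 was not tested. Tnxb was 4.64, 6.49 and 0.0067 in MSC and 0.394, 0.432 and 1.92 in TAC, with opposite directions in the library sets, and Tnr and Stab2 were at 1.41 or less in each library.

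Of 18 genes of the parathyroid hormone pathway tested out of 21, 1 was higher in MSC and 0 in TAC, with a median difference of 0.19. With the block Hdac4 and Nr4a1 joined it, which made 3 higher in MSC. The smooth muscle, endothelial and Schwann cell sums were higher in MSC too, as given above, and their part was not tested. The gene called without the block, Hdac5, a class IIa histone deacetylase downstream of PTH1R signaling, measured 42.5, 47.1 and 76.4 across MSC replicates 1 to 3, whereas TAC replicates 1 to 3 gave 28.6, 26.9 and 20.1 (difference -1.07, unadjusted p 0.0128). The stimulatory G protein subunit gene Gnas differed by 0.19 and the protein kinase A subunit genes Prkaca, Prkacb and Prkar1a by 0.75, 0.68 and 0.34, with unadjusted p-values of 0.0706 to 0.644. The values for replicates 1 and 2 and for replicate 3 lay apart for all 4, at 0.0081 and 0.55 for Gnas, 0.38 and 1.51 for Prkaca, 0.091 and 1.85 for Prkacb, and 0.56 and -0.079 for Prkar1a.

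**Figure D5:**
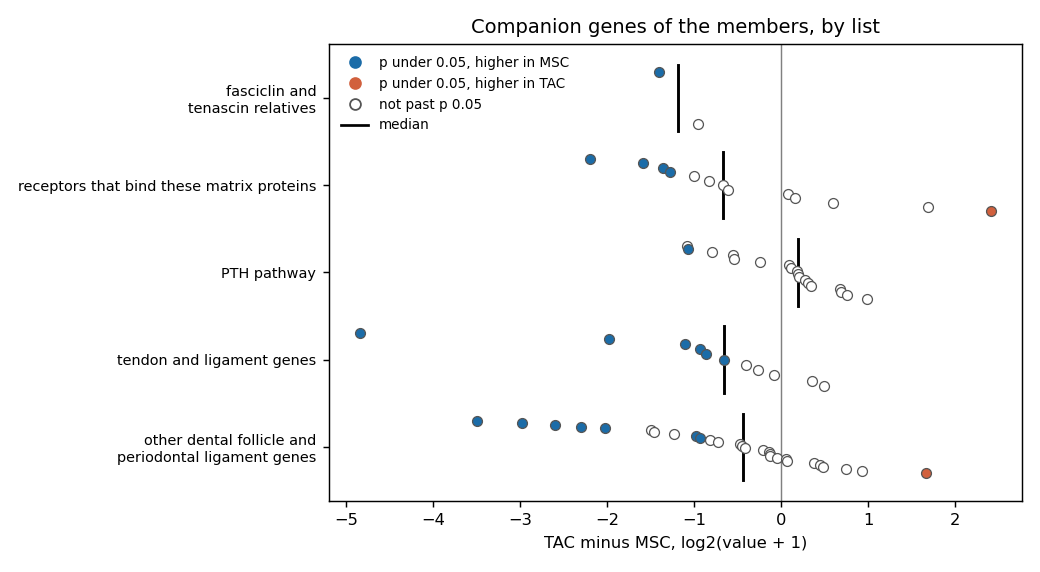
Difference between TAC and MSC (x axis, log2(value + 1)) for the 72 tested genes of 5 lists (y axis), 1 circle per gene, filled where the unadjusted limma p was under 0.05, with a black bar at each list's median. Filled circles lie mostly on the MSC side in the tendon, follicle and receptor lists, and the PTH pathway list is centred near 0.

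Within replicates 1 and 2 alone, 4 of the 9 genes passed the adjusted threshold, Tgfbi, Tnn, Mkx and Pthlh, where 44.2% of all genes did, and the same 4 had an unadjusted p under 0.05, where 51.9% did. The error in that fit is the small spread between libraries with a correlation across genes of 0.983 in MSC and 0.990 in TAC.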

How the data were processed

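RNA from laser-captured incisor mesenchyme was sequenced in 3 MSC and 3 TAC samples. After trimming, the authors mapped reads on mm10 with TopHat2 2.0.8, and their methods name RPKM as the normalization. CASAVA 1.8.2 and Partek are also named in the submitters' processing notes. The deposited values did not behave as RPKM and were treated as a signal, a read number plus 1 scaled per library and not divided by gene length. To estimate reads, each value was divided by its library's minimum and 1 was subtracted. Below 20 reads, 66.9% to 76.4% of them per library lay within 0.05 of a whole number, so no count model was used for the main fit. Voom on estimated reads was run as an alternative only.

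Tests used limma 3.58.1 in R 4.3.3 on log2(value + 1), with a variance trend keeping 15391 genes whose mean reached 1. The test had been planned for RPKM values and was kept for the unit found. P-values are two-sided and adjusted by the Benjamini-Hochberg method over all genes tested. An unadjusted threshold of 0.05 was counted too, as the study's methods name it. The fit was tested on simulated data. The 9 genes and the lists were chosen with earlier results of these data known, so no p over a list is given. From each list the genes past an unadjusted p of 0.05 are named, at most 6 in order of p, and other list genes (Thy1, Tnfrsf11b, Gnas, Prkaca, Prkacb, Prkar1a, Itgb1, Tnmd, Chad, those gained with the block, the marker genes named beside a sum and those with no read) were chosen after their values were seen. For the 3 genes with the largest difference the 3 most correlated genes are named, without predicted genes and clone names.

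Deviations of same-numbered samples from their group means correlated at 0.477, 0.465 and 0.517 across genes, so the numbers in the labels were taken as pairs for the fit with a replicate block. Replicates 1 of one group and 2 of the other correlated as highly, at 0.462 and 0.480, so the shared deviation is that of replicate 3. Coordinates are 1-based on mm10, with the deposited end lowered by 1, and 6 of 9 spans equal those of GENCODE release M21. The spans of Tgfbi, Scx and Mkx differ, and that of Mkx starts at 6910459 as deposited and at 6934518 in M21. Exon lengths are those of M21 for all 9 genes, so the level per kb of Mkx may include reads from outside the exons measured. Sequences are RefSeq's.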

Additional observations from a re-analysis of the deposited data

How the results depend on the processing

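The direction of the 9 differences was kept in 142 of 151 values over the alternatives. Fn1 changed sign with quantile normalization (0.0089), with voom on estimated reads (0.0027), in replicate 3 only (0.044) and when single libraries were left out, where it ran from -0.71 to 0.62. Tnc ran from -0.40 to 3.03 and Pth1r from -0.37 to 0.072 when single libraries were left out, and Pth1r was 0.10 in replicates 1 and 2 only. The causes were not tested.

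The count of the 9 genes past the adjusted threshold was 0 in each alternative but replicates 1 and 2 only, where it was 4. The count past an unadjusted p of 0.05 was 2. The share of all genes past it moved as well and is given in brackets. The count became 1 with a pseudocount of 0.1 (10.6%), without a variance trend (11.7%) and with replicates 1 and 2 averaged (4%), a fit chosen after seeing the data, 0 with a mean of at least 10 (14.6%), which leaves out Pthlh and gave Tnn a p of 0.0591, and 4 in replicates 1 and 2 only (51.9%). With single libraries left out it ran from 1 to 3 (6.68% to 20.2%). With the replicate block, the paired fit, it was 3 (20.4%). It was also 3 with median-ratio scaling (10.7%) and with voom on estimated reads (15%), where Mkx joined Tnn and Pthlh. The count of genes whose groups did not overlap was 3 (24.5% of all genes), and 5 with median-ratio scaling (23.7%), 6 in replicates 1 and 2 only (72.9%) and 3 to 5 with single libraries left out (27.4% to 49.9%). Of the 72 companion genes, 21 had an unadjusted p under 0.05, 32 with the replicate block, 55 in replicates 1 and 2 only and 9 with replicates 1 and 2 averaged, where 11.9%, 20.4%, 51.9% and 4% of all genes did. Scx had 0 estimated reads in the deepest library and 33 to 191 in the others.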
